A study of Mus musculus with 7 samples.

Results

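The SCP1 reporter library was compared with its own plasmid input in 500 bp bins of the mouse genome. The assay is CapStarr-seq, in which genomic fragments are captured, cloned behind a promoter in a reporter plasmid and transfected, so that each fragment is transcribed as part of the RNA it regulates. Reads in that RNA over reads in the plasmid input measure the output of a fragment relative to the other fragments. A bin was kept if it held at least 50 input reads, with each 315 bp extended read placed by its midpoint. This chose 100794 of 1205320 bins with any read, which is 8.36% of them, and did not use the reporter count.

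The fragments were DNase hypersensitive sites, which are stretches of open chromatin, and the host was P5424, a mouse line of immature T cells. The labels give 50000000 cells for every sample and 1 library for each of 7 groups. The 2 groups described here are the SCP1 reporter and the SCP1 input. The reporters with pPGK, with pPGK in a library labelled PMA_I, and with a promoter labelled pR-Ea are used only to set the same bins side by side. The treatment label lists PMA and ionomycin, which together activate T cells, for all samples alike, and PMA_I stands in the title of 1 library only, so the labels do not settle whether the SCP1 cells were stimulated. P5424 is a single established line, and a plasmid carries a fragment outside its chromosome. With 1 library a group there is no replicate check, no test against replicates and no p-value. Every difference below is between these libraries.

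SCP1, the super core promoter 1, is an artificial core promoter that joins several core elements in 1 short sequence, among them a TATA box and an initiator. A core promoter places RNA polymerase II at the start site and by itself has no distal regulatory sequence. An enhancer raises the output of such a promoter from a distance, and a silencer lowers it. In a pooled assay the ratio is relative: a bin above its input gave more RNA than the pool as a whole, and a bin below gave less. The word "called" is used for a rule of size: reporter and input differ by 2-fold or more (1 on the log2 scale), and equality lies outside the ratio's exact 95% interval (Clopper-Pearson). The ratio has 1 read added to each count and is scaled by the reads of each library in the kept bins. Intervals cover counting error only, since PCR copies are not independent molecules. A standard error over distinct read positions (SE) is therefore given as well.

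The library held 54992717 reporter reads and 45278192 input reads, of which the kept bins took 79.9% and 78.3%. The median kept bin had 101 input reads (quartiles 65 and 266), 114 reporter reads, 17 distinct input positions and 14 distinct reporter positions. The precision of most bins is thus set by few positions. Read positions that faced each other with no other within 1000 bp had input counts within 1 read of each other in 36.9% of 25781 pairs, against 21.1% of 6078 pairs that faced away. If both ends of a molecule were counted, the intervals and the SE are too narrow, and whether they were was not tested.

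Most kept bins lay close to their input, and their spread was wider on the low side. The median log2 ratio was -0.29, the mean -0.49 and the SD over bins 1.18. The ratio was within 2-fold of input in 72.5% of bins, and 64.0% of bins lay below 0. The percentiles from the 5th to the 95th ran from -2.51 to 0.92, and the 99th was 1.47. The 1st percentile was -5.98 with the added read and -4.61 with bins of 0 reporter reads set at a floor of 3 reads. The lowest bin with a reporter read stood at -7.71 and the highest bin at 3.97.

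**Figure D1:**
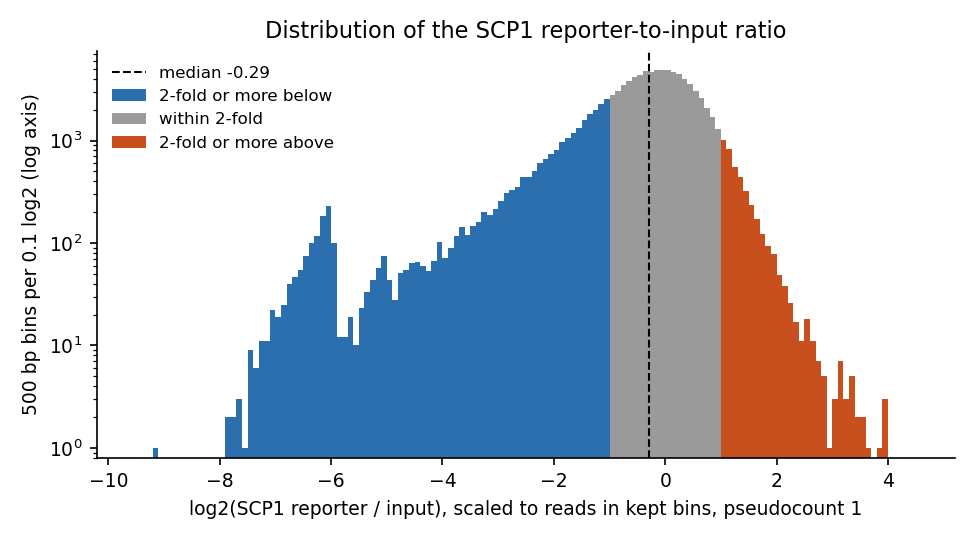
Number of 500 bp bins (log axis) in each 0.1 step of log2(SCP1 reporter / input), with bins 2-fold or more below input in blue, 2-fold or more above in orange and the rest in grey. The dashed line is the median of -0.29, and the highest bin is at 3.97. The separate peaks near -6 and -5 are bins with 0 and 1 reporter reads, whose place is set by the added read.

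By the rule of size 23604 bins (23.4% of the kept bins) were called below input and 4074 (4.04%) above. Every kept bin past 2-fold met the interval condition, so the calls rest on the size of the ratio alone. The bins below had a median log2 ratio of -1.62 and took 14.4% of the input reads but 4.81% of the reporter reads. The bins above had a median of 1.23 and took 3.69% of the input reads but 10.9% of the reporter reads. This split depended on how bins were chosen and scaled. With the median ratio set to 0 it was 16885 below and 8907 above. With bins chosen by 100 or more reads in both counts together in place of input alone, an alternative added after seeing the data, it was 13678 and 11140, and with 500 or more it was 2664 and 1455. Counted by distinct positions in place of reads it was 4379 and 1190.

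Among the kept bins the tail was longer on the low side. At 4-fold or more, 8016 bins were below input and 210 above, and at 8-fold or more the numbers were 3381 and 27. No kept bin was 16-fold or more above, while 1932 were that far below. With bins of 0 reporter reads set at the floor of 3 reads, 29 kept bins were 64-fold or more below. Keeping bins by input reads alone, the denominator of the ratio, favours low ratios. With bins chosen by 100 or more reads in both counts together, the tails were closer: 2763 below and 1678 above at 4-fold, 742 and 412 at 8-fold, and 303 and 166 at 16-fold, with a count of 0 on either side set at the floor. With 500 or more they were 431 and 138 at 4-fold and 98 and 26 at 8-fold. In the kept bins with at least 200 input reads the median log2 ratio was -0.10 and the range from the 5th to the 95th percentile was -1.5 to 0.91.

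The bins at both extremes differed in how many fragments stood behind them. The 27 bins 8-fold or more above input had a median of 352 input reads, 73 input positions and 164 reporter positions. They formed 22 separate places, and 20 of them (74.1%) had at least 20 input positions. The 3381 bins 8-fold or more below had a median of 65 input reads, 7 input positions and 1 reporter position, and 540 of them (16.0%) had at least 20 input positions. Bins with 0 reporter reads numbered 1032, with between 50 and 452 input reads and a median of 5 input positions, and 624 more had 1 to 3 reporter reads.

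**Figure D2:**
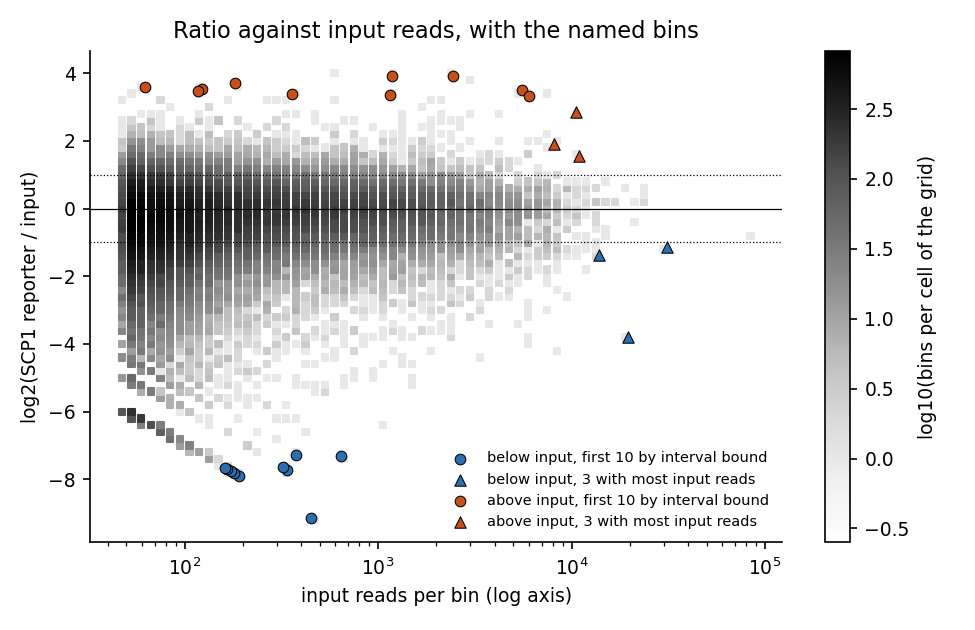
Log2(SCP1 reporter / input) of the kept bins against input reads (log axis), with darker squares for more bins and dotted lines at 2-fold. Circles are the first 10 bins a side by the interval bound nearest equality and triangles the 3 called bins a side with most input reads. The circles below have 162 to 644 input reads and those above 62 to 6047; the slanting bands at the lower left are bins with few or no reporter reads.

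The share of bins called below input was lower in the deeper classes of input reads, and the share above hardly differed. The classes are cut on the ratio's denominator, so they do not check the lean to the low side. It was 32.7% of 35446 bins with 50 to 75 input reads, 21.0% of 20012 with 101 to 200, 10.7% of 7704 with 501 to 1000 and 10.4% of 7943 with 1001 to 5000. In the 542 bins over 5000 input reads it was 15.3%. The share above lay between 3.14% and 4.34% in all 7 classes. The median log2 ratio moved the same way, from -0.49 in the class with least input to -0.05 between 1001 and 5000 reads.

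The number of distinct input positions gave a like order. Of 16261 bins with 1 to 5 positions 36.0% were called below, against 17.0% of 21336 bins with 21 to 50 and 12.6% of 7781 with 101 to 200. The share above was between 3.33% and 4.71% over these classes. Just inside the minimum of 50 input reads, 9905 bins with 50 to 54 had a median of -0.52, and just outside it 12384 bins with 45 to 49 had -0.57. Just inside the 2-fold limit, 2549 bins lay between -1.1 and -1 and 1022 between 1 and 1.1. Just outside it, 2808 lay between -1 and -0.9 and 1309 between 0.9 and 1.

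**Figure D3:**
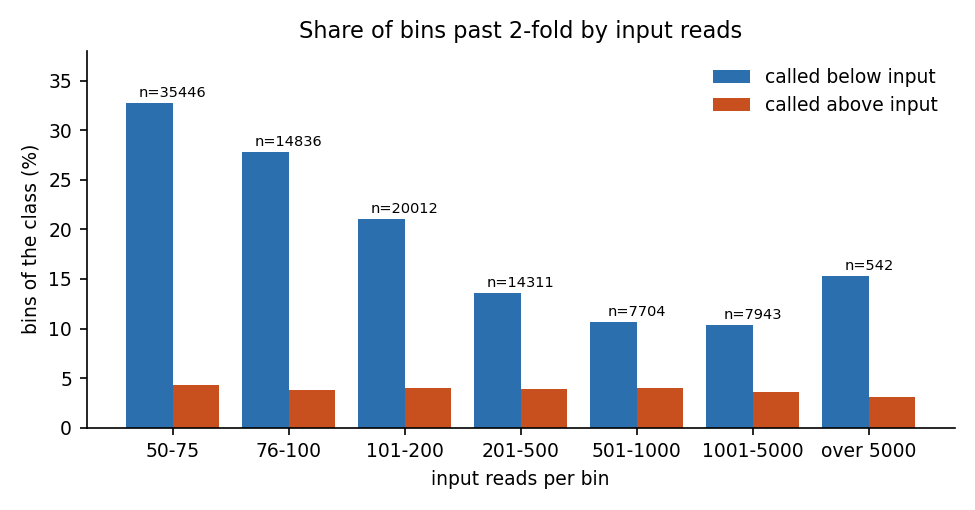
Percent of kept bins called below input (blue) and above input (orange) by input reads per bin, with the number of bins over each class. The blue bars fall from 32.7% at 50 to 75 reads to 10.4% at 1001 to 5000 reads, and the orange bars stay between 3.14% and 4.34%.

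The share of low bins was largest where many input reads were under the top mapping score of 42, with no steady order among the other classes. Among bins with at least 200 input reads, 8.38% were called below where over 1% to 5% of the input reads had such a score. The share was 10.1% at over 5% to 20%, 18% at over 20% to 50% and 20.6% over 50%. The share above was between 3.31% and 4.13% in all 6 classes. In the 605 bins with no such input read 13.4% were below, and in the 1661 with up to 1% the share was 9.51%. The part of mapping in the ratio was not tested.

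Both strands of a bin gave similar values. In 39875 bins with at least 50 input reads on each strand, the median difference between the strands was 0.15 on the log2 scale. Of 5481 such bins called below, 5469 had both strands below and 4285 (78.2%) had both past 2-fold. Of 1635 called above, 1634 had both strands above and 1291 (79.0%) had both past 2-fold. The strands share their libraries, so they are not replicates. The calls were made on both strands summed, so agreement of each strand with the call is partly built in. If both ends of a molecule were counted, which was not tested, the strands also hold the same fragments.

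Low bins were ranked by the interval bound nearest equality and not by the ratio itself. The first 10 were spread over 8 chromosomes, and each is given by its mm9 coordinates. Bin chr1:136621001-136621500 had 0 reporter reads against 452 input reads at 146 positions. Set at a floor of 3 reporter reads it was 187-fold lower. The upper bound of its interval, which allows less, was -7.24, or 151-fold lower. Both strands were empty in the reporter, with 187 and 265 input reads. It was the kept bin with most input reads among those with 0 reporter reads, and no kept bin touched it.

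Bin chr9:51149001-51149500 had 4 reporter reads at 2 positions and 644 input reads at 104 positions, so that its log2 ratio was -7.32 (interval -9.52 to -6.28, SE 1.13). The bin touching it was called below as well. Bin chr8:90541501-90542000 had 1 reporter read against 321 input reads at 105 positions, a log2 ratio of -7.64 (interval -13.94 to -6.15). Bin chrX:68288501-68289000 had 2 reporter reads and 375 input reads at 84 positions, so that its log2 ratio was -7.28 (interval -10.91 to -6.00). In these 3 bins a handful of reporter reads stands against more than 80 input positions.

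Bin chr5:111652001-111652500 had 1 reporter read against 338 input reads at 33 positions, a log2 ratio of -7.71 (interval -14.02 to -6.22). Bin chr9:59575001-59575500 had 0 reporter reads against 173 input reads at 60 positions. That is 71.4-fold lower at the floor and 57.5-fold at the bound of its interval, which allows less. The 1000 bp bin that holds this last one had a log2 ratio of 0.18, so the reads in its other part turned the sign. The 4 others had 0 reporter reads but few input positions. They were chr2:128907501-128908000 with 191 input reads at 7 positions and chr10:37847001-37847500 with 179 at 7. The other pair was chr5:134990001-134990500 with 166 at 19 and chr4:136480501-136481000 with 162 at 9. At the floor these 4 were 78.9-fold, 73.9-fold, 68.5-fold and 66.9-fold lower. The bounds of their intervals, which allow less, were 63.5-fold, 59.5-fold, 55.1-fold and 53.8-fold lower. In each of them 1 position held between 38.3% and 48.8% of the input reads, so few fragments lie behind these values. In the order given, 99.5%, 43.0%, 0.602% and 69.8% of their input reads were under the top mapping score. In 1000 bp bins the values were also less extreme at chr8:90541501-90542000 (-1.19), chr1:136621001-136621500 (-4.12), chr9:51149001-51149500 (-5.64) and chr5:134990001-134990500 (-3.25).

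The called low bins with most input reads were less extreme. Bin chr1:43193501-43194000 had 1747 reporter reads and 19565 input reads, so that its log2 ratio was -3.79 (SE 0.10), which is 13.9-fold lower; by distinct positions it was -0.715. Its strands stood at -3.81 and -3.76 and the bin touching it was called below too, but 89.7% of its input reads had a mapping score under 42. Bin chr17:87088501-87089000 had 6722 reporter reads and 13906 input reads, so that its log2 ratio was -1.36 (SE 0.08); by distinct positions it was -0.119, inside the 2-fold limit. Bin chr17:39983501-39984000 had 17830 against 31337, a log2 ratio of -1.12 (SE 0.08). By distinct positions in place of reads its ratio was 0.07, so it was low in reads but not in positions. With the median ratio set to 0 it stood at -0.83, inside the 2-fold limit. The bin before it, chr17:39983001-39983500, held the most input reads of all, 84946, with 56714 reporter reads and a log2 ratio of -0.89, inside the 2-fold limit.

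Of the first 10 bins above input, ranked by the interval bound nearest equality, 8 touched another bin called above. Bin chr8:90578501-90579000 had 45861 reporter reads and 2452 input reads at 378 positions, so that its log2 ratio was 3.92 (interval 3.86 to 3.98, SE 0.07), which is 15.1-fold higher. Its strands stood at 3.85 and 4.02, and no position held more than 1.63% of its reporter reads. Bin chr17:72814001-72814500 had 22076 against 1177, also a log2 ratio of 3.92 (SE 0.10). Bin chr11:23914001-23914500 had 77300 against 5523, a log2 ratio of 3.50 (SE 0.08), and chr7:149853501-149854000 had 75438 against 6047, a log2 ratio of 3.33 (SE 0.10). The last lay in 3 touching bins that were all called above. These 4 rest on 177 or more input positions each, but many of their input reads were under the top mapping score. The share of such reads was 79.4% at chr8:90578501-90579000 and also over 50% at chr7:149853501-149854000. It was 39.9% at chr11:23914001-23914500 and 31.9% at chr17:72814001-72814500, against 11.4% in the median kept bin.

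Bin chr2:93400001-93400500 had 14433 reporter reads and 1149 input reads, so that its log2 ratio was 3.34 (SE 0.09), and chr12:70855501-70856000 had 4670 against 360, a log2 ratio of 3.38 (SE 0.25). Bin chr2:6265501-6266000 had 2942 against 182, a log2 ratio of 3.70 (SE 0.29), with 95.6% of its input reads under the top mapping score. That share was 81.3% at chr2:93400001-93400500, 77.4% at chr5:126821501-126822000 and 24.7% at chr12:70855501-70856000. It was 6.5% at chr18:40026501-40027000 and 5.98% at chr5:140252501-140253000. Bins chr18:40026501-40027000 and chr5:140252501-140253000 had 1757 against 123 and 1618 against 117 reads, log2 ratios of 3.52 (SE 0.39) and 3.47 (SE 0.46). Bin chr5:126821501-126822000 stood apart. It had 932 reporter reads and 62 input reads, so that its log2 ratio was 3.58, but 96.4% of its reporter reads lay at 1 position. Its plus strand was at 3.84 and its minus strand at -0.19, and its ratio was -0.01 by distinct positions and 0.92 without its top position.

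Among the called high bins with most input reads, chr18:42683501-42684000 had 94395 reporter reads and 10521 input reads, so that its log2 ratio was 2.86 (SE 0.06), with strands at 2.88 and 2.83. Bin chr10:25999501-26000000 had 37955 against 8130, a log2 ratio of 1.91 (SE 0.08). Bin chr8:125305501-125306000 had 39758 against 10912, a log2 ratio of 1.56 (SE 0.08). All 3 were above on both strands and past 2-fold on each. By distinct positions in place of reads, 8 of the named high bins stayed above 0 but inside the 2-fold limit, from 0.11 at chr8:125305501-125306000 to 0.76 at chr8:90578501-90579000. In these 8 bins the ratio was thus larger in reads than in positions. A position counts once however many reads it holds, so this measure cannot follow a rise in reads at positions already seen.

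The chromosomes differed little. Over the 20 with at least 200 kept bins the share called below ran from 20.9% on chromosome 11 to 27.5% on chromosome X, and the share above from 3.29% on chromosome 14 to 4.84% on chromosome 11. The X chromosome had the fewest input reads, with a median of 78 a bin against 124 on chromosome 11. Among bins with at least 200 input reads the X chromosome had the lowest share below, 9.19%, and chromosome 18 the highest, 14.4%. The place of X in the order therefore turned with depth. The 175 kept bins on unplaced, Y and mitochondrial sequence held 44 below and 5 above.

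Kept bins that stood alone were more often low than bins that touched others. Of 59316 lone bins 28.7% were called below, against 17.3% of 27124 bins in pairs, 11.9% of 3244 in runs of 4 and 13.2% of 1783 in longer runs. Lone bins also had fewer input reads, a median of 77 against 202 in pairs. Among bins with at least 200 input reads the shares were 13.7%, 12.9%, 8.18% and 8.78%, a smaller gap in the same direction. The share above went the other way over all bins, 3.56%, 4.60%, 5.12% and 6.0%. Within runs, the bin with most input reads and the other bins had almost the same median, -0.14 and -0.14.

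A called bin and its neighbour tended to lie on the same side, more so at 500 bp than further away. Over all kept bins the median was -0.29, with 4.04% called above and 23.4% below. At 500 bp from a bin above input, 2256 kept bins had a median of 0.46, with 22.7% called above and 4.61% below. At 1000 bp the median was 0.02 and 8.69% were above, and from 1500 to 20000 bp between 4.2% and 9.57% were above. The share above thus stayed over that of all kept bins at each distance. At 500 bp from a bin below input, 7300 kept bins had a median of -0.74 with 39.0% below. At 1000 bp it was -0.33 with 24.8%, near the values of all kept bins. Bins with a kept bin nearby are a different pool from all kept bins. In runs of 2 or more, 11.9% to 17.3% were below and 4.6% to 6.0% above, against 28.7% and 3.56% of lone bins. How far the likeness reaches against such a pool was not tested. An extended read of 315 bp is counted in 1 bin by its midpoint but can reach into the next, so bins that touch can hold overlapping reads. If both ends of a molecule were counted, which was not tested, touching bins can also hold the same fragment. Of 17787 runs of at least 2 touching bins, 1056 (5.94%) were called below throughout and 160 (0.9%) above throughout, and 152 (0.855%) held calls on both sides. Whether these shares differ from those of bins taken singly was not tested. The longest run, chrX:166424501-166438000, had 27 bins, 2 of them below and 3 above, with a median of -0.03.

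**Figure D4:**
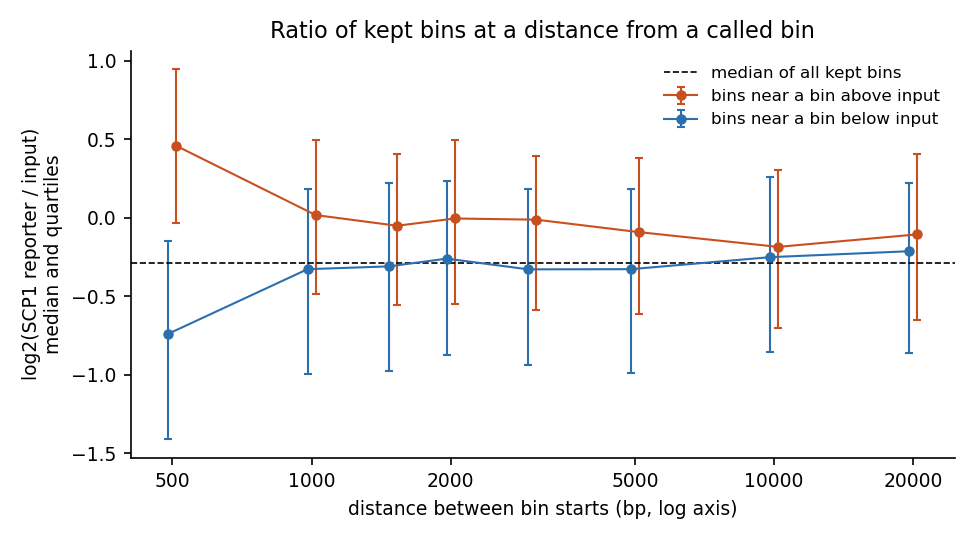
Median and quartiles of log2(SCP1 reporter / input) of kept bins at a given distance (bp, log axis) from a bin called above (orange) or below (blue) input, with the median of all kept bins dashed. The points are 0.46 and -0.74 at 500 bp and 0.02 and -0.33 at 1000 bp.

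On the scale of 1000000 bp, 1372 stretches had at least 30 kept bins, and the median stretch had 21.2% of them below and 3.70% above. The most low stretch was on chromosome X from 112000001, with 17 of 30 bins below and 0 above. Next was chromosome 11 from 14000001, with 17 of 31 below and 0 above, at 17 separate places. Their median input was 65 and 69 reads a bin, near the minimum. The 17 low bins on chromosome X lay in 16 runs of touching bins.

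The stretch with the largest share above was on chromosome 18 from 20000001, with 10 of 37 bins above and 9 below. Its high calls lay in 1 small block, and its low calls lay outside it. Between 20773001 and 20787500, a length of 14500 bp, 10 of 17 kept bins were above and 0 below, with a median log2 ratio of 1.03 and a range from 0.38 to 2.69. The block was drawn from its first to its last high call, so its share above and its median are partly set by that choice. These bins had a median of 73 input reads, and in the median bin 98.2% of the input reads were under the top mapping score, against 11.4% over all kept bins. The next, on chromosome 9 from 3000001, had 12 of 52 bins above and 6 below. At the start of that chromosome 11 of 25 kept bins up to 3032500 were above and 0 below. There the median log2 ratio was 0.82, and 86.8% of input reads in the median bin were under the top score. The part of the mapping score in these high values was not tested.

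A stretch of chromosome 6 from 132005501 to 132522500 held both sides, 7 bins above and 6 below of 18, with ratios from -6.06 to 2.75. In its median bin 84.0% of input reads were under the top score. On chromosome 13 between 91207501 and 91681000, 8 of 26 bins were above and 1 below. Its bins were better mapped, with 18.3% of input reads under the top score in the median bin, and had a median of 209 input reads. The limits on chromosomes 6 and 13 were also drawn from the first to the last high call.

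Bins low with SCP1 were often low with the other promoters, each against its own input. Of 5646 SCP1-low bins kept with pPGK, 2333 (41.3%) were called below there, against 9.9% of all bins kept in both. With pR-Ea it was 1756 of 5349 (32.8%) against 8.24%, and with pPGK PMA_I 1970 of 5913 (33.3%) against 8.9%. Both pPGK libraries share 1 input, so their values are not separate evidence. Bins kept in both had more SCP1 input reads, with a median of 385 against 101 over all SCP1 bins in the case of pPGK.

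The high side was shared with pPGK more than with pR-Ea. Of 1516 SCP1-high bins kept with pPGK, 391 (25.8%) were called above there, against 3.64% of all bins kept in both. In pPGK PMA_I it was 566 of 1571 (36.0%) against 12.6%. With pR-Ea it was 35 of 1626 (2.15%) against 0.975%. The median log2 ratio of SCP1-high bins was 0.70 for pPGK, 0.80 for pPGK PMA_I and 0.26 for pR-Ea. The difference between promoters was not tested, and the filter on mapping score left 65.5% of pPGK reporter and 57.5% of pPGK input reads, 69.5% of the input and 99.4% of the reporter reads in the PMA_I file, but all reads of SCP1 and pR-Ea.

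The larger the SCP1 ratio, the larger the ratio elsewhere, on both sides. Bins under -4 with SCP1 had a median of -3.02 with pPGK (225 bins) and -1.96 with pR-Ea (210 bins). Those from -2 to -1 had -0.63 and -0.52. Bins from 1 to 2 had 0.67 and 0.25, and those of 2 or more had 1.35 (104 bins) and 0.47 (107 bins). Among these 4-fold high bins, 72 of 104 (69.2%) were called above with pPGK and 0 below, against 3.64% and 9.9% of all bins kept in both. With pR-Ea 4 of 107 (3.74%) were called above and 4 (3.74%) below, against 0.975% and 8.24%.

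**Figure D5:**
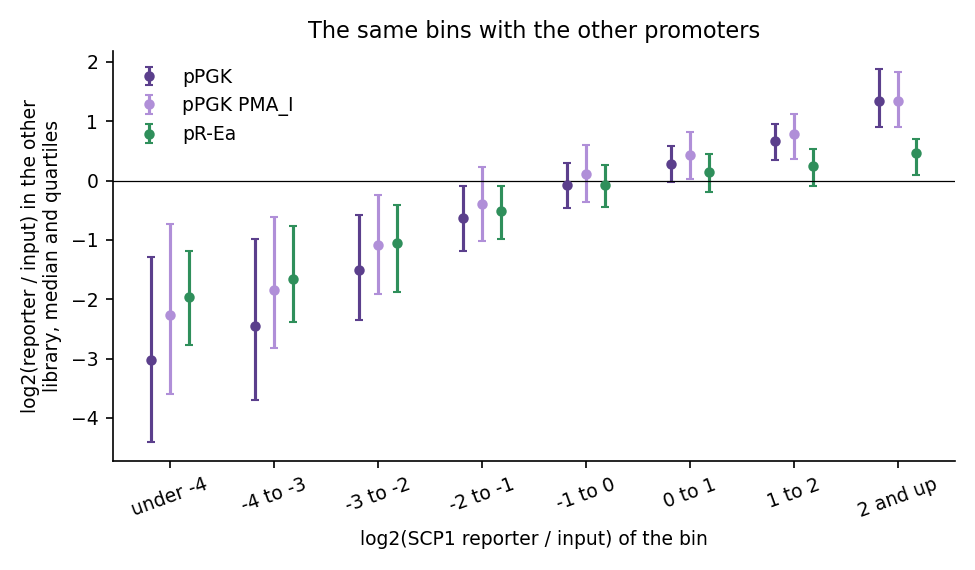
Median and quartiles of log2(reporter / input) in the pPGK, pPGK PMA_I and pR-Ea libraries for the same bins, grouped by their log2 ratio with SCP1. Medians rise from left to right in each library, from -3.02 to 1.35 with pPGK and from -1.96 to 0.47 with pR-Ea.

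The low and high bins named above, ranked by interval bound and not by ratio, were set beside the other libraries. Of the first 10 low bins, 6 were kept in each other library, and all 6 were called below in all 3. Their log2 ratios were -7.30 to -2.68 with pPGK and -3.78 to -2.81 with pR-Ea. Bin chr1:136621001-136621500, for example, had 8 reporter reads against 385 input reads with pPGK and 59 against 303 with pR-Ea. The 4 low bins with few input positions were not kept in any other library.

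Of the first 10 high bins, 7 were kept with pPGK and all 7 were called above, at 1.53 to 2.52. With pR-Ea 8 were kept, at -0.10 to 1.18, and 1 was called above, chr7:149853501-149854000. Bin chr8:90578501-90579000, at 3.92 with SCP1, had 26360 reporter reads against 2180 input reads with pPGK, a log2 ratio of 2.30 (SE 0.10). With pR-Ea it had 5465 against 1051, a log2 ratio of 0.94 (SE 0.07). The low bin chr1:43193501-43194000 was close in all of them, at -3.79 for SCP1, -3.61 for pPGK, -3.22 for pPGK PMA_I and -3.0 for pR-Ea. The other low bins with most input reads were lower with pPGK than with SCP1 and not called with pR-Ea: chr17:39983501-39984000 was at -1.12, -1.95 and -0.21 with SCP1, pPGK and pR-Ea, and chr17:87088501-87089000 at -1.36, -1.76 and -0.64.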

How the data were processed

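The data are sequencing counts of 1 SCP1 reporter library and its plasmid input, with 3 other reporter libraries for comparison. The genome build is mm9, and the tools named are Bowtie2, SAMtools and bedtools 2.28.0, per the submitters' processing notes. What each tool did is not given in the sources used here. Each of the 4 deposited files starts without a header, lists extended reads of 315 bp and gives a mapping quality score in column 5, which was 30 to 42 as deposited by the authors in the SCP1 file, and whole-number counts in columns 7 and 8. The deposited counts in column 7 were read as reporter and those in column 8 as input. No label says so. It rests on column 8 being equal at all 5258758 positions shared by both pPGK files.

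From these, positions with a score of at least 30 were used, and each of 267951 positions listed on both strands, with the same counts on both lines, was counted once. Reads were summed in 500 bp bins by fragment midpoint, and bins with at least 50 input reads were kept. Ratios used a pseudocount of 1 and were scaled by the reads in kept bins. Calls used the 2-fold rule with the exact 95% interval. The SE is a delta-method error over positions, and folds of bins with 0 reporter reads use a floor of 3 counts per library. Bins named in the text are the first 10 called bins a side by the interval bound nearest equality, touching bins counted once, and the 3 called bins a side with most input reads. Chromosomes with under 200 kept bins were not ranked. The members, rules and comparisons were chosen with earlier results of these data known.

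Coordinates are mm9 and start at 1. Genes, planned gene lists and sequences are not given because the gene table at hand belongs to another build. The rule was tested on simulated counts with counting error only, drawn independently for each bin. That test does not cover reads clumped on few positions or PCR copies. Python 3.11.15, NumPy 2.4.6, pandas 2.3.3, SciPy 1.17.1 and Matplotlib 3.10.9 were used. The floor in the tail counts, and bins chosen by both counts together, were added after seeing the data. Alternatives of scaling, bin size, input minimum, strand, positions and threshold were tried.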

Additional observations from a re-analysis of the deposited data

Results flagged for a closer look

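Some bins were called on opposite sides with SCP1 and another promoter, in a smaller share than over all bins kept in both, and these differences were not tested. Above input with SCP1 and below with pPGK were 12 of 1516 bins (0.792%, against 9.9% of all bins kept in both), such as chr15:76009001-76009500 with 1039 reporter reads against 232 input reads with SCP1 (log2 ratio 1.85, SE 0.49) and 45 against 62 with pPGK (-1.75, SE 1.57). Below with SCP1 and above with pPGK were 39 of 5646 bins (0.691%, against 3.64%), such as chr11:108335501-108336000 with 24 against 133 (-2.73, SE 0.65) and 363 against 67 (1.13, SE 0.46). Above with SCP1 and below with pR-Ea were 30 of 1626 bins (1.85%, against 8.24%), such as chr4:155153001-155153500 with 1053 against 147 (2.52, SE 0.34) and 40 against 78 (-2.39, SE 0.50). Below with SCP1 and above with pR-Ea were 26 of 5349 bins (0.486%, against 0.975%), such as chr3:33041501-33042000 with 0 against 140 and 384 against 52 (1.42, SE 0.19). These examples were chosen after their values were seen. In pPGK PMA_I, 278 of 5913 SCP1-low bins (4.7%, against 12.6%) were called above. There 35 of 1571 SCP1-high bins (2.23%, against 8.9%) were called below.

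Reporter signal was also seen in bins outside the main set. Among 1104526 bins under 50 input reads, 4568 had at least 100 reporter reads and were above input by the same rule. Being above input is largely built into this choice by few input and many reporter reads. The leading one, chr3:102824001-102824500, had 1348 reporter reads at 70 positions against 40 input reads at 11 positions, a log2 ratio of 4.73 (SE 0.63). That is above the highest kept bin, which stood at 3.97, but the kept bins were chosen by input reads alone.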

How the results depend on the processing

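No paired analysis was possible because each group has 1 library. The low calls stayed more numerous than the high calls, and the median stayed at or below 0, under each alternative tried. This is partly built in. Most alternatives also keep bins by input reads, which favours low ratios, and another sets the median to 0. The counts moved as follows, low then high, against 23604 and 4074. With the median set to 0 the counts were 16885 and 8907, and with trimmed mean scaling 17244 and 8598. With at least 20 input reads they were 87845 and 15269, and with at least 200 they were 3946 and 1056. By distinct positions they were 4379 and 1190, sharing 16.3% and 13.3% of the main calls. Without the top position they were 24189 and 6210, on the plus strand alone 12168 and 2249, on the minus strand alone 12346 and 2292, and at 1.5-fold 37347 and 12163. Added after seeing the data, at least 20 input positions gave 6923 and 1774, 100 reads in both counts together 13678 and 11140, and 500 such reads 2664 and 1455. The interval on counts removed no bin past 2-fold, so halving the reads in it, which left all calls in place, was a weak check. An interval over positions kept 17231 and 3529 of the calls. The median log2 ratio of -0.29 was 0.0 with the median set to 0, -0.26 scaled to all reads, -0.014 with trimmed mean scaling, -0.28 in 250 bp bins, -0.30 in 1000 bp bins, -0.45 and -0.14 with at least 20 and 200 input reads, and -0.0083 by distinct positions. It was -0.30 without the top position, -0.23 and -0.24 on the plus and minus strand, -0.30 with both lines of shared positions counted, -0.26 by the 5' end and -0.26 at a mapping score of 42. It was -0.15 with 20 positions, and -0.0274 and -0.047 with 100 and 500 reads together. The width from the 5th to the 95th percentile, 3.43, was 3.47 and 3.35 in 250 and 1000 bp bins, 5.79 and 2.40 with at least 20 and 200 input reads, and 2.14 by distinct positions. It was 4.10 without the top position, 3.10 and 3.12 on the plus and minus strand and 3.26 by the 5' end. Bin chr9:59575001-59575500 turned to 0.18 in 1000 bp bins. By distinct positions chr17:39983501-39984000 turned to 0.0704 and chr5:126821501-126822000 to -0.0147. The 6 named bins with 0 reporter reads have no interval over positions. The cause of the changes was not tested. With no replicate, neither culture nor cloning variation can be told apart from the ratio.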
